A study of Glycine max with 24 samples.

Results

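The transcripts described here are those of soybean (Glycine max) chromosome 19, followed across 4 lines and 2 treatments. A row of the expression table was a member when its identifier began with Glyma19g, and members were ordered by the 5 digits after the g, which rise along the chromosome. This gave 1955 of 41743 rows, from 1947 loci, 8 of which had 2 or more transcript models. Membership was selected on the identifier only, while the chromosome itself was singled out with results of these data known. Chromosomes 15, 18 and 20 had 2007, 2312 and 1835 rows.

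RNA was sequenced from leaves in 24 libraries. The recombinant inbred lines R-11268 and R-11272 and the parents LD and LDX of their population each gave 3 MAMP and 3 control libraries. A pool held leaves of 5 plants, 3 weeks old and grown with a 16 h photoperiod, which were sliced and exposed for 30 min to 5 ml holding crab shell chitin (50 µg) and flg22 (1 µM), the MAMP treatment, or to a mock solution of water and DMSO (control). A MAMP and a control library with the same line and number were read as 1 plant pool, so each line had 3 pools and line differences rest on 12 pools.

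A recombinant inbred line descends by repeated selfing from a cross of its parents and is nearly homozygous. At most loci it carries the sequence of one parent or of the other, and because crossovers are few, neighbouring loci tend to come from the same parent in long blocks. A transcript whose level depends on sequence near its own gene therefore tends to keep the level of the parent that gave that stretch of chromosome. Plant cells sense microbes through receptor kinases at the cell surface that bind microbe-associated molecular patterns (MAMPs), such as flg22, which comes from flagellin of bacteria, and chitin from the walls of fungi. Genes of the early defence response change within minutes. The identifiers of chromosome 19 are paired with no gene names at hand, so no gene roles are given, and the labelled tissue could not be checked against leaf markers among the members.

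Library totals ranged from 9780810 to 20827163 estimated counts, of which chromosome 19 held 3.515% to 4.303%, and pool totals from 24082985 to 37044104. Levels are given as CPM, the usual library-scaled count unit, after scaling with edgeR's TMM factors. LD pool 2, LDX pool 3 and R-11272 pool 1 stood apart from the other 9 on the first principal component, which held 50.7% of the variance over all transcripts, at 71.4, 176 and 170, against -69.2 to -25.8. Counts of called members without these 3 pools follow those with all 12. The deposited values have the form of fitted values. In each line the ratio of MAMP to control was the same in all 3 replicates for 100% of the members compared (SD under 0.001 on the log2 scale). A MAMP effect thus has no replicate error of its own here, the spread of scarce transcripts lies below counting error, and their SDs and p-values may be too small. The p-values of the main tests measure the spread between pools. Those of limma with the 4 lines as replicates measure the spread of responses between lines. The fit with a replicate block of line and number leaves the spread between pools out. In a leaf sample, fewer cells of a type and less RNA per cell cannot be told apart.

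Members spanned identifier numbers 220 to 45410 and were unevenly spread. There were 285 rows with numbers under 5000, 37 from 10000 to 14999, 27 from 15000 to 19999 and 385 from 35000 to 39999. Averaged over the 4 lines, 76 members were above 100 CPM, 647 between 10 and 100, 594 between 1 and 10, and 638 under 1. The 10 most abundant held 14.6% of the members' counts. Of the members, 1608 (82.3%) passed the filter on low counts over pools and 1521 passed over libraries.

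The most abundant member, Glyma19g28240.1, averaged 996 ± 356 CPM in R-11268, 690 ± 435 in R-11272, 1090 ± 341 in LD and 1010 ± 848 in LDX (SD, n = 3 pools each). Its pools ranged from 198 CPM in R-11272 pool 1 to 1970 in LDX pool 2, so the lines overlapped. Glyma19g43460.1 had 373, 406 and 308 CPM in the R-11268 pools, 2130, 509 and 314 in R-11272, 673, 870 and 730 in LD, and 499, 426 and 1660 in LDX. Its highest values in R-11272 and LDX were those of the pools that stood apart. Glyma19g35570.1 was more even, with means of 600 ± 56 CPM in R-11268, 512 ± 86.7 in R-11272, 621 ± 74.9 in LD and 677 ± 142 in LDX (SD, n = 3 pools each).

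The first comparison was between the parents. Of the 1608 members tested, 54 differed between LD and LDX (edgeR quasi-likelihood test on pool sums, Benjamini-Hochberg adjusted p under 0.05 over all 34807 transcripts tested). That is 3.36%, against 3.85% of all transcripts. In LD 25 members were higher (1.55%, against 1.97% of all) and 29 lower (1.8%, against 1.88%). At 2-fold or more 48 members differed (2.99%, against 3.32%), and at 8-fold or more 7 were higher and 10 lower in LD (1.06% together, against 1.17% of all). The pools of LD and LDX did not overlap for any of the 54. A call at this threshold itself favours pools that do not overlap, and the share over all transcripts called is not given. The median absolute log2 difference was 0.287 over members and 0.315 over all transcripts. Chromosome 19 as a whole was thus near the background. Without the 3 pools apart 107 members were called (6.58%, against 8.1% of all transcripts), 66 of them higher in LD and 41 lower. Without LD pool 1, 2 or 3 alone 33, 34 and 35 were called. No share over all transcripts is given for leaving out an LD pool.

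The largest parental differences were those of transcripts at or near 0 in 1 parent. Glyma19g09020.1 had 1.61, 1.52 and 1.33 CPM in the LD pools and was listed at effectively 0 in all LDX pools, at least 49.4-fold higher in LD (edgeR adjusted p = 4.39e-05). For this bound the 133.7 estimated counts of LD and a floor of 3 counts, set over the LDX pools together, were each divided by the scaled totals of their pools. Glyma19g09340.1 had 1.03, 0.631 and 0.993 CPM in LD and again effectively 0 in LDX, at least 30.6-fold higher in LD (edgeR adjusted p = 0.000486). In the other direction Glyma19g11560.1 had 0.0598, 0.12 and 0.0625 CPM in LD, against 16.6, 17.4 and 29.4 in LDX. The LDX level was 261 times the LD level, with a 95% counting interval of 124 to 637 (edgeR log2 difference LD minus LDX -7.99, adjusted p = 1.39e-05). The next locus, Glyma19g11570.1, had 0.0221, 0.183 and 0.0244 CPM in LD, against 12.5, 13.5 and 6.72 in LDX (LDX over LD 182, interval 79.3 to 473, edgeR adjusted p = 0.000107). Counting intervals cover counting error only. The sources used here do not state how reads shared by near-identical copies or overlapping genes were counted, and a split of reads between such neighbours was not tested.

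**Figure D1:**
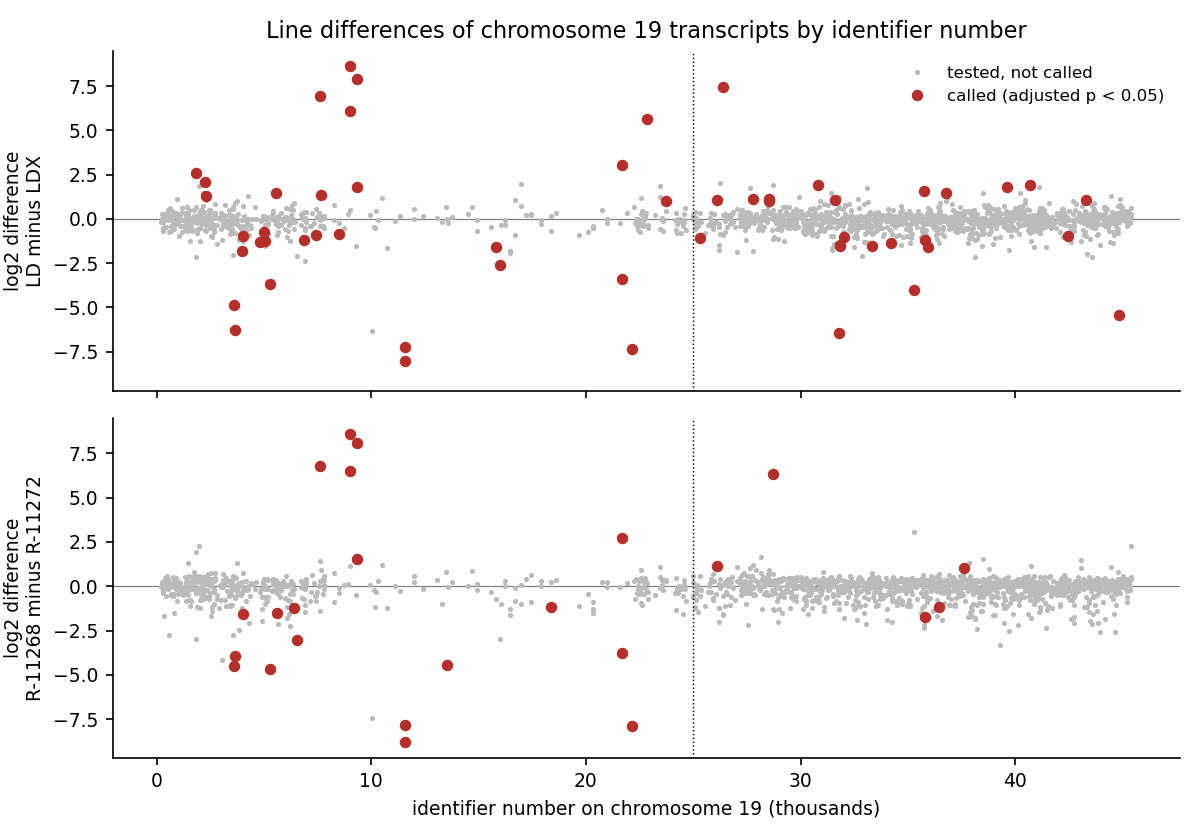
Log2 differences of chromosome 19 transcripts against identifier number, LD minus LDX above and R-11268 minus R-11272 below. Large points are called at adjusted p under 0.05 (54 above, 24 below), small points are tested and not called, and the dotted line marks number 25000. Left of that line 30 points are called above and 19 below. Of these 19, 14 were also called above, and 18 had the sign of LD minus LDX.

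The inbred lines were compared next. R-11268 and R-11272 differed in 24 members (1.49%, against 1.26% of all transcripts). In R-11268 9 members were higher (0.56%, against 0.572%) and 15 lower (0.933%, against 0.69%). All 24 differed by 2-fold or more (1.49%, against 1.24% of all transcripts), as did 432 of the 439 calls over all transcripts. At 8-fold or more 5 were higher and 9 lower in R-11268 (0.871% together, against 0.488% of all). Leaving those 3 pools out, 33 members were called (2.03%, against 1.88%). This comparison shares no library with that of the parents. In 23 of the 24 (95.8%) the sign of R-11268 minus R-11272 was that of LD minus LDX, against 266 of the 439 calls over all transcripts (60.6%). Of the 24, 16 were also among the 54 called between the parents (66.7%), which is the share over all transcripts, 289 of 439 (65.8%).

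The same transcripts were at or near 0 again. Glyma19g09020.1 had 1.44, 1.48 and 1.5 CPM in R-11268 and effectively 0 in R-11272, at least a 48.2-fold excess in R-11268 (adjusted p = 0.000127 by edgeR). Glyma19g09340.1 had 0.865, 1.08 and 1.16 CPM in R-11268 and effectively 0 in R-11272, at least a 33.9-fold excess (adjusted p = 0.000911 by edgeR). These are the levels of LD in R-11268 and of LDX in R-11272. Glyma19g11560.1 had 0.0523, 0.0625 and 0.0493 CPM in R-11268, against 44.1, 19.2 and 17.4 in R-11272, where it was 438 times higher (95% counting interval 197 to 1170, edgeR adjusted p = 2.18e-05). The value of 44.1 CPM came from the R-11272 pool that stood apart. Glyma19g22170.1 was effectively 0 in R-11268 and had 1.74, 0.541 and 0.514 CPM in R-11272, a deficit of at least 28.4-fold in R-11268 (adjusted p = 0.0479 by edgeR). That call was lost in 10 of 20 alternatives, among them leaving out any R-11268 pool, with adjusted p up to 0.19.

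**Figure D2:**
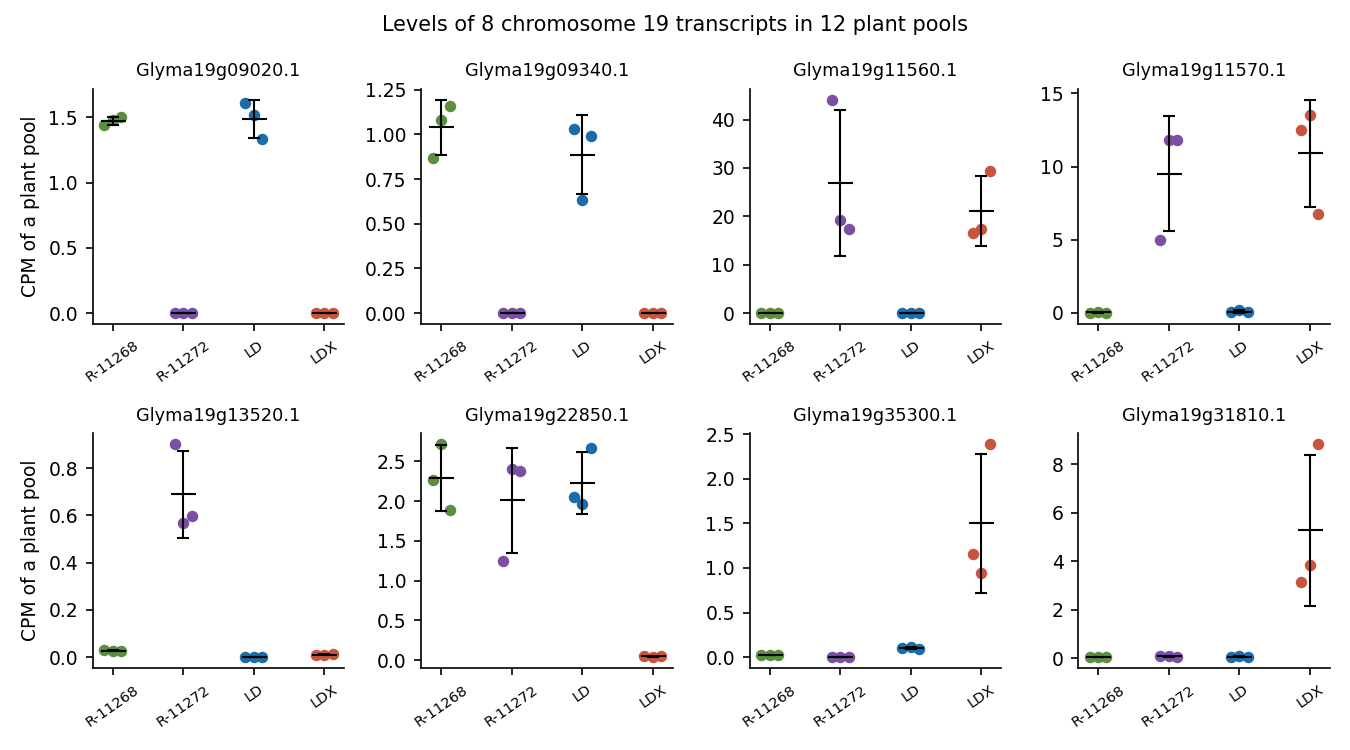
CPM of 8 chromosome 19 transcripts in 12 plant pools, 1 panel a transcript, with linear axes. Points are pools, in the order R-11268, R-11272, LD and LDX, the wide bar is the mean and the error bars are the SD (n = 3 pools). In the upper row R-11268 sits with LD and R-11272 with LDX, while the lower row holds the transcripts named for R-11272 against LDX, where R-11272 does not sit with LDX.

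Differences between the lines were not spread evenly along the chromosome. With a split at number 25000, chosen after the values were seen, 574 members lay under it and 1381 from it on, with 450 and 1158 tested over pools. R-11268 and R-11272 differed in 19 of the 450 (4.22%) and in 5 of the 1158 (0.432%), against 1.26% of all transcripts. LD and LDX differed in 30 of the 450 (6.67%) and 24 of the 1158 (2.07%), against 3.85% of all. With the 3 pools apart left out, the inbred lines differed in 5.46% under 25000 and 0.685% from 25000, and the parents in 10.3% and 5.14%. The 8-fold differences between the inbred lines numbered 13 under 25000 (2.89%) and 1 from 25000 (0.0864%), against 0.488% of all transcripts.

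The inbred difference also followed the parental one more closely under 25000. Across transcripts, the correlation of R-11268 minus R-11272 with LD minus LDX on the log2 scale was r = 0.814 (rho 0.587, n = 450 transcripts) under 25000. From 25000 it was 0.339 (rho 0.434, n = 1158), over the whole chromosome 0.597 (rho 0.479) and over all transcripts 0.239 (rho 0.379). Both differences are of mean log2 CPM over pools with the same scaling, and few very large values carry r, so these are descriptions. When the 3 pools apart were left out, r was 0.819 under 25000 and 0.305 from 25000. In windows of 5000 numbers r was 0.692, 0.853, 0.942, 0.757 and 0.709 up to 25000, then 0.382, 0.271, 0.417 and 0.286 up to 45000. The last window, with 20 tested transcripts and no call, had 0.658. Among 20 chromosomes r over all tested transcripts ran from -0.379 on chromosome 18 to 0.597 on chromosome 19. It was 0.551 on chromosome 2 and on chromosome 5, 0.517 on chromosome 20 and -0.153 on chromosome 15.

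**Figure D3:**
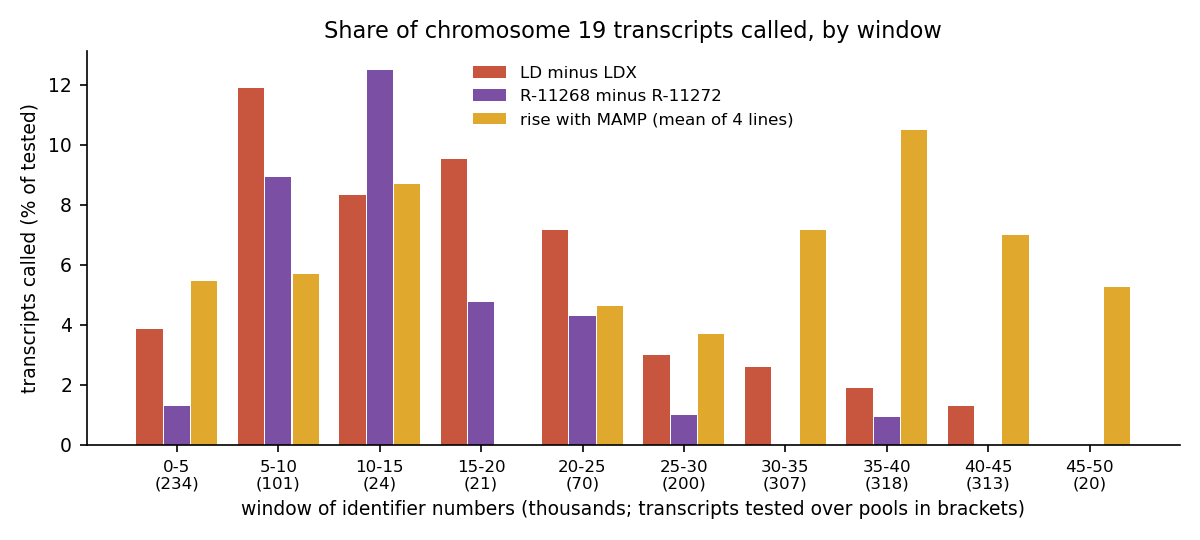
Share of tested chromosome 19 transcripts called (percent), in windows of 5000 identifier numbers, with the number tested over pools in brackets. Bars show LD minus LDX, R-11268 minus R-11272 and rises with MAMP averaged over 4 lines. The inbred lines reach 8.91% and 12.5% in the windows from 5000 and 10000, the second with 24 tested transcripts, while rises with MAMP reach 10.5% in the window from 35000.

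To place the inbred lines between their parents, the 48 loci with a called parental difference of 2-fold or more were set on a log2 scale from 0 at the LDX level to 1 at the LD level (prior count 2). A line was called LD-like within 0.25 of 1, LDX-like within 0.25 of 0, between in the gap, and outside elsewhere. These classes have no test. R-11268 was LD-like at 25 loci, LDX-like at 6, between at 14 and outside at 3. R-11272 was LD-like at 9, LDX-like at 27, between at 6 and outside at 6. At 16 loci R-11268 was LD-like where R-11272 was LDX-like, and at 1 locus the reverse held. Both were LD-like at 4 and LDX-like at 4.

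Nearly all of that contrast lay under 25000. There, at 26 loci, R-11268 was LD-like at 19 and LDX-like at 2, and R-11272 was LD-like at 1 and LDX-like at 20. The inbred lines were of opposite class at 15 of these 26, and the sign of R-11268 minus R-11272 was that of LD minus LDX at 26 of 26. From 25000, at 22 loci, R-11268 was LD-like at 6 and LDX-like at 4, and R-11272 LD-like at 8 and LDX-like at 7. The inbred lines were of opposite class at 1, and signs were shared at 12 of 22 (54.5%). Over all transcripts they were shared at 691 of 1155 such calls (59.8%), so 12 of 22 is near the background and 26 of 26 is above it. The split was chosen after the values were seen and neighbouring loci are not independent, so this is a description. With 9 pools, those apart left out, 41 loci could be placed under 25000, where R-11268 was LD-like at 29 and R-11272 LDX-like at 26, and 39 from 25000, where R-11268 was LD-like at 10 and R-11272 LDX-like at 15. Among loci with 100 or more estimated counts per pool, 9 lay under 25000, with R-11268 LD-like at 8 and R-11272 LDX-like at 7.

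Read in order, with between and outside loci passed over, classes ran together. R-11268 had a run of 14 LD-like loci from number 2270 to 11570, 1 LDX-like locus at 15790, and 5 LD-like loci from 16010 to 22850. It was LDX-like at 23720 and 25330, LD-like at 4 loci from 26120 to 31820, and alternated locus by locus from 33320 to 43300. R-11272 had a run of 19 LDX-like loci from 1850 to 22170, was LD-like at 22850, and LDX-like at 23720 and 26120. A run of 5 LD-like loci from 26410 to 31820 followed, then 6 LDX-like loci from 32020 to 36800 and 3 LD-like loci from 39640 to 43300. Past 22850 the runs held 1 to 6 loci, so their ends are loosely placed.

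**Figure D4:**
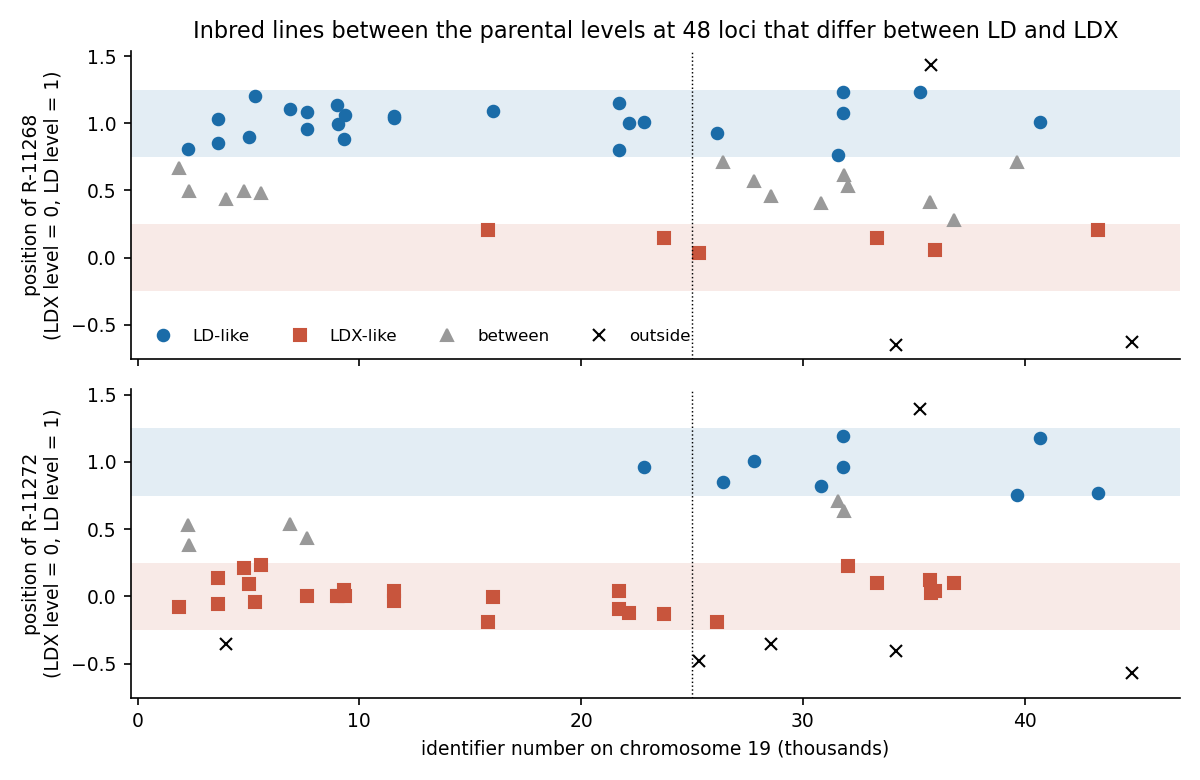
Position of R-11268 (above) and R-11272 (below) between the parental levels at 48 loci called between LD and LDX with 2-fold or more, against identifier number. On the vertical axis LDX is 0 and LD is 1 on the log2 CPM scale, the bands mark the LD-like and LDX-like ranges, and the dotted line marks number 25000. Left of the line R-11268 lies mostly in the LD band (19 of 26 loci) and R-11272 mostly in the LDX band (20 of 26).

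Some members show the contrast at higher abundance, and those in this paragraph were chosen after their values were seen. Glyma19g09320.1, between the on and off transcripts Glyma19g09020.1 and Glyma19g09340.1, had 103, 90.5 and 93.6 CPM in LD, against 25.3, 21.2 and 35.4 in LDX. It had 83.3, 83.3 and 81.7 CPM in R-11268, against 32.1, 27.8 and 25.6 in R-11272. The mean log2 difference over pools was 1.84 ± 0.224 (SE, n = 3 pools each) for LD minus LDX, and the ratio of the totals was 3.69 (counting interval 3.53 to 3.85) between the parents and 2.97 (2.84 to 3.1) between the inbred lines. Neither pair overlapped. Glyma19g05290.1 had 1.09, 1.64 and 0.704 CPM in LD, against 14.9, 18.3 and 10.5 in LDX, and 0.915, 0.454 and 0.547 in R-11268, against 10.6, 18.3 and 20.9 in R-11272. The LDX level was 13.9 times that of LD (11.3 to 17.3), and the R-11272 level 27.6 times that of R-11268 (21.6 to 35.5).

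The step near 25000 can be followed in single loci, also chosen after their values were seen. At Glyma19g22850.1 both inbred lines had the LD level, with 2.29 ± 0.413 CPM in R-11268 and 2.01 ± 0.659 in R-11272, against 2.23 ± 0.389 in LD and 0.0478 ± 0.0104 in LDX (SD, n = 3 pools each). At Glyma19g26120.1 they parted again, with 9.84, 11.1 and 10.3 CPM in the R-11268 pools, and 5.82, 4.22 and 4.08 in those of R-11272, against 10.7, 12.5 and 9.97 in LD and 5.05, 4.72 and 6.34 in LDX. At Glyma19g26410.1, effectively 0 in LDX, both were on, with means of 0.285 ± 0.03 CPM in R-11268 and 0.443 ± 0.0459 in R-11272, against 0.645 ± 0.0664 in LD (SD, n = 3 pools each). The LD-like and LDX-like loci are thus interleaved between 22850 and 26410.

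Each inbred line was then set against each parent. These comparisons share pools with LD minus LDX. R-11268 differed from LD in 12 members (0.746%, against 1.41% of all transcripts) and from LDX in 42 (2.61%, against 1.87%). R-11272 differed from LD in 66 (4.1%, against 3.15%) and from LDX in 19 (1.18%, against 1.61%). Under 25000, R-11268 differed from LD in 3 of 450 tested members (0.667%) and from LDX in 27 (6%), and R-11272 differed from LD in 34 (7.56%) and from LDX in 7 (1.56%). From 25000 the shares of 1158 were 0.777% and 1.3% for R-11268, and 2.76% and 1.04% for R-11272, against LD and LDX in that order. Without the 3 pools apart R-11268 differed from LD in 21 members (1.29%, against 2.42% of all) and from LDX in 61 (3.75%, against 3.21%), and R-11272 from LD in 89 (5.47%, against 4.78%) and from LDX in 18 (1.11%, against 2.28%). The calls for R-11268 minus LD were 9 higher and 3 lower with all pools, and 9 higher and 12 lower without those 3. They numbered 4 to 7 without any 1 pool of R-11268 or LD, 49 in MAMP libraries and 7 in control libraries. For these counts, and those that follow, no share over all transcripts is given. They show only how far the count of members moved. Calls for R-11268 minus LDX numbered 23 to 27 without any 1 pool of R-11268 or without LDX pool 2. Those for R-11272 minus LD numbered 29 without LD pool 1, 34 without LD pool 2 and 40 without R-11272 pool 2, and those for R-11272 minus LDX 11 without R-11272 pool 2 and 12 without LDX pool 2.

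The members named for R-11268 against LDX, and 3 of those for R-11272 against LD, were the transcripts with parental differences described above. Glyma19g09020.1 and Glyma19g09340.1 were higher in R-11268 than in LDX (edgeR adjusted p = 7.5e-05 and 0.000604), and Glyma19g11560.1 and Glyma19g11570.1 were lower (log2 differences -8.47 and -8.06, edgeR adjusted p = 1.81e-05 and 0.000111). In R-11272 Glyma19g11560.1 was higher than in LD (log2 difference 8.34, edgeR adjusted p = 2.49e-05), as was Glyma19g22170.1 (edgeR adjusted p = 0.0325), a call lost in 7 of 20 alternatives with adjusted p up to 0.11. Glyma19g09020.1 and Glyma19g09340.1 were lower in R-11272 than in LD (edgeR adjusted p = 0.000113 and 0.000969).

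Against LD, the 2 members named as higher in R-11268 lay past 30000. Glyma19g34210.1 had 2.23, 2.62 and 3.28 CPM in R-11268, against 0.672, 0.502 and 0.67 in LD (log2 difference 2.12, edgeR adjusted p = 0.0078). R-11272, with 2.4, 1.83 and 2.3 CPM, was also above LD, while LDX had 2.36, 1.39 and 1.04 and overlapped both inbred lines. Glyma19g43110.1 had 1.54, 1.65 and 0.916 CPM in R-11268, against 0.49, 0.328 and 0.524 in LD (log2 difference 1.59, edgeR adjusted p = 0.0197), with 1.34, 1.39 and 1.2 in R-11272 and 0.258, 0.343 and 0.206 in LDX. Both inbred lines were thus above both parents, with no overlap. The call against LD was lost in 9 of 20 alternatives, and in control libraries alone its log2 difference was 0.63 (edgeR adjusted p = 0.652). Of the 12 calls 3 were lower in R-11268, and none of them reached 10 estimated counts per library in LD.

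Against LDX, members were named as higher and as lower in R-11272. At Glyma19g22850.1 and Glyma19g31810.1 R-11272 was LD-like. Glyma19g13520.1 had 0.902, 0.569 and 0.597 CPM in R-11272, against 1 estimated count over all LDX pools, 65.2 times as much, with counting bounds as far apart as 11.3 and 2620 (adjusted p = 0.000365 by edgeR). It was effectively 0 in LD and had 3 counts in R-11268, so in this table only R-11272 of the 4 lines held it above the floor. Glyma19g22850.1, described above, was 44.5 times higher in R-11272 than in LDX (18.1 to 133, edgeR adjusted p = 2.63e-05). Glyma19g35300.1 was effectively 0 in R-11272, against 1.16, 0.946 and 2.39 CPM in LDX, a deficit of at least 44.7-fold in R-11272 (adjusted p = 0.000222 by edgeR). R-11268 had 2.906 estimated counts of it in all and LD 8.78. Glyma19g31810.1 had 0.102, 0.0689 and 0.0507 CPM in R-11272, against 3.13, 3.84 and 8.83 in LDX, 68.1 times lower in R-11272 (31.7 to 165, edgeR log2 difference -6.11, adjusted p = 7.43e-05). With 0.0362, 0.0401 and 0.0312 CPM in R-11268 and 0.0508, 0.0723 and 0.0433 in LD, LDX stood alone in expressing it above 1 CPM. The highest LDX value of Glyma19g35300.1 and of Glyma19g31810.1 came from the pool that stood apart.

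Calls for the treatment were mostly rises. Averaged over the 4 lines, 104 members rose with MAMP (6.84% of 1521 tested, against 7.75% of all 33214 transcripts) and 38 fell (2.5%, against 2%) by edgeR's quasi-likelihood test over 24 libraries. Of these, 61 rose and 4 fell by 2-fold or more (4.59% and 0.163% of all transcripts did), and 21 rose and 0 fell by 8-fold or more (rises 1.38%, against 0.994% of all). With limma and the 4 lines as replicates, a test that uses only how alike the lines respond, 103 rose and 35 fell. The share of all transcripts called by limma is not given. Leaving out the 3 pools apart, 146 rose and 100 fell (16.1% in all, against 17% of all transcripts). Falls then made up a larger part of the calls. The same held over all transcripts, with 1944 falls among 5629 calls, against 664 among 3238 with all pools.

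In single lines 48 members rose and 3 fell in R-11268 (3.16% and 0.197%, against 3.16% and 0.232% of all transcripts). In R-11272 59 rose and 9 fell (3.88% and 0.592%, against 3.9% and 0.406%). In LD 64 rose and 3 fell (4.21% and 0.197%, against 4.38% and 0.292%), and in LDX 51 rose and 3 fell (3.35% and 0.197%, against 3.47% and 0.31%). Leaving out the 3 pools apart, 91 rose and 31 fell in R-11268 (5.96% and 2.03%, against 6.78% and 1.41% of all transcripts), and 87 rose and 53 fell in R-11272 (5.69% and 3.47%, against 6.92% and 2.7%). LD then had 91 rises and 9 falls (5.96% and 0.589%, against 6.84% and 0.678% of all transcripts). LDX had 81 and 11 (5.3% and 0.72%, against 5.9% and 0.696%). In each of the 4 lines falls were a larger part of the calls without those pools, over members and over all transcripts. Calls in R-11268 numbered 29 without its pool 1 and 33 without its pool 3, and those in R-11272 42 without its pool 2 and 45 without its pool 3. Shares over all transcripts are not given for leaving out 1 pool. Of the 104 rising members with all pools 100 had a positive response in each of the 4 lines, 37 were called in each line and 32 in none. Their median log2 responses were 1.20 in R-11268, 1.37 in R-11272, 1.49 in LD and 1.32 in LDX. Of the 38 falling ones 29 were negative in each line and 27 were called in none, with medians of -0.35 in R-11268, -0.56 in R-11272, -0.49 in LD and -0.45 in LDX. Both sets were picked on the mean of these responses.

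Glyma19g34660.1 showed the largest fitted rise that met the naming rule, a log2 response of 5.23 that was positive in 4 of 4 lines (adjusted p = 2.38e-06 by edgeR). It had 0.341, 0.967 and 5.51 CPM (lowest, median and highest) in the 12 MAMP libraries, and at most 0.0946 CPM in the 12 control libraries. In all, 245.5 estimated counts in MAMP libraries stood against 7.979 in control libraries, a ratio of 30.2 (counting interval 15 to 70.5). No MAMP library overlapped a control library. Glyma19g35770.1 reached far higher levels, with 34.6, 55.2 and 416 CPM in MAMP libraries against 0.505, 2.76 and 21.5 in control libraries (log2 response 4.95, edgeR adjusted p = 1.02e-06). Its ratio was 17 (14.5 to 20.2) in R-11268, 9.25 (8.33 to 10.3) in R-11272, 74.9 (57.7 to 99.1) in LD and 72.3 (59.1 to 89.4) in LDX. These intervals leave out the spread between pools, and the test for a difference in response over the lines did not call it. In control libraries the R-11268 pools had 2.8, 2.71 and 2.95 CPM and those of R-11272 21.5, 4.2 and 4.24, against 0.832, 1.7 and 1.49 in LD and 0.505, 1.01 and 5.91 in LDX. The highest MAMP values, 416 and 218 CPM, and the highest control values, 5.91 and 21.5 CPM, were in LDX replicate 3 and R-11272 replicate 1, both of pools that stood apart.

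Among the falling members Glyma19g34650.1, the locus next to Glyma19g34660.1, had 0.106, 0.285 and 0.608 CPM (lowest, median and highest) in MAMP libraries, against 0.243, 0.706 and 1.18 in control libraries. Its log2 response was -1.10 (edgeR adjusted p = 0.000634, negative in 4 of 4 lines), with 65.61 estimated counts in MAMP libraries and 136.2 in control libraries. Glyma19g35850.1 had 0.2, 0.644 and 1.51 CPM in MAMP libraries, against 0.564, 1.12 and 3.69 in control libraries (log2 response -1.01, edgeR adjusted p = 0.00408). For both, MAMP and control libraries overlapped across lines.

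**Figure D5:**
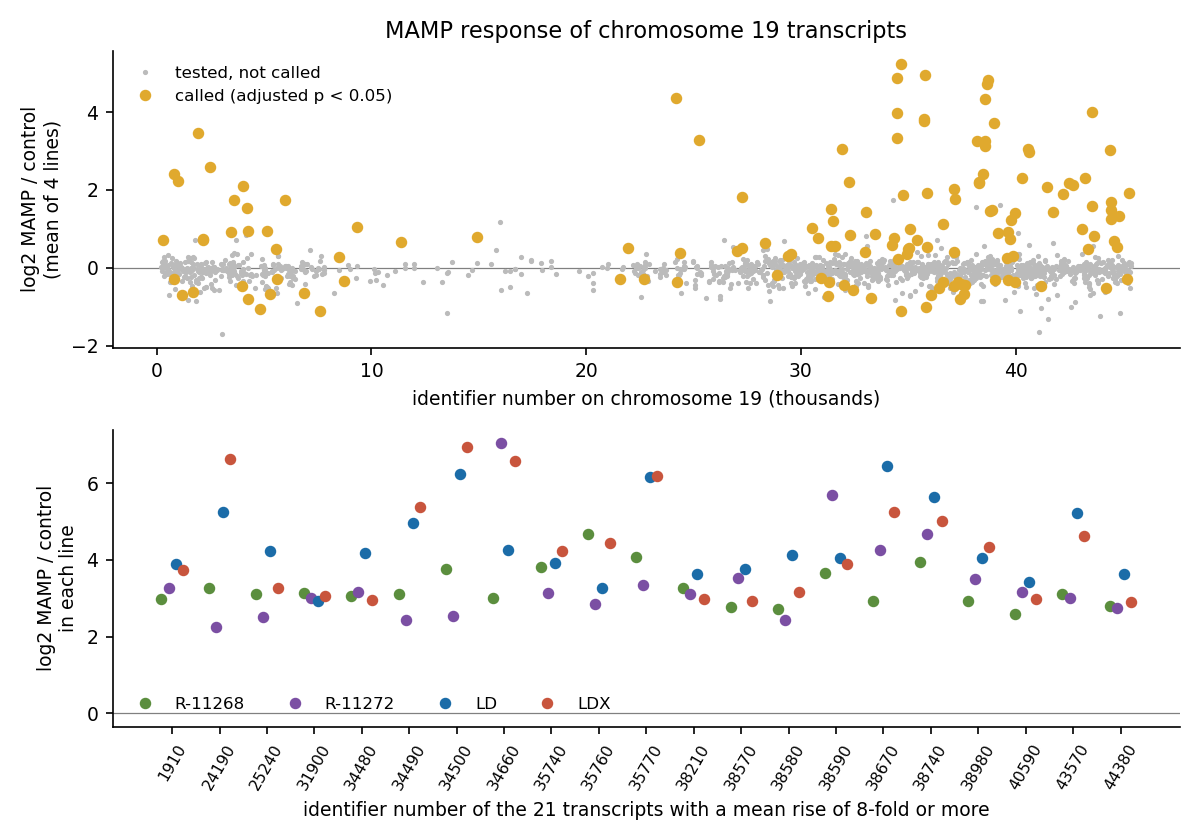
MAMP response of chromosome 19 transcripts. Above, the log2 ratio of MAMP to control averaged over 4 lines against identifier number, with called transcripts as large points (104 rises, 38 falls); below, the log2 response in each line of the 21 transcripts with a mean rise of 8-fold or more, all above 0 in each line. Of these 21, 19 lie at numbers from 25000 on (1.72% of those tested there, against 0.481% under 25000 and 0.994% of all transcripts).

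The rises sat mostly in the far part of the chromosome, where most members lie. Under 25000 22 members rose (5.29% of 416 tested) and 14 fell (3.37%), and from 25000 82 rose (7.42% of 1105) and 24 fell (2.17%). Of the 21 rises of 8-fold or more 2 lay under 25000 (0.481% of those tested) and 19 from 25000 on (1.72%), against 0.994% of all transcripts. The window from 35000 to 39999 held 32 rises, 10.5% of its tested members, against 7.75% of all transcripts. The window from 10000, where the inbred lines differed most often, had rises in 8.7% of 23 tested members.

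Some rising loci were next to each other. In the order of 1516 tested loci, 29 of the 104 rising ones (27.9%) stood in 12 runs of 2 or 3 adjacent rising loci, against 33.6% of rising loci over the 20 chromosomes. The loci at 34480, 34490 and 34500 had mean log2 responses of 3.33 to 4.87, the run from 35740 to 35770, which includes Glyma19g35770.1, had 3.78 to 4.95, and the run from 38570 to 38590 had 3.12 to 4.33. Glyma19g34480.1 had 54.7, 68.5 and 122 CPM (lowest, median and highest) in MAMP libraries, against 3.38, 7.17 and 12.5 in control libraries. Glyma19g34490.1 had 30.7, 47.4 and 302 CPM in MAMP libraries, against 0.82, 4.72 and 32.8 in control libraries. Glyma19g34500.1 was scarcer, with 3.94, 5.43 and 40 CPM in MAMP libraries, against 0.0358, 0.316 and 3.69 in control libraries. MAMP and control libraries did not overlap for Glyma19g34480.1 and Glyma19g34500.1, while 1 control value of Glyma19g34490.1 passed its lowest MAMP value. Glyma19g38570.1 had 52, 69.7 and 127 CPM in MAMP libraries, against 4.86, 8.18 and 11.5 in control libraries. Glyma19g38580.1 had 3.33, 4.76 and 8.69 CPM in MAMP libraries, against 0.267, 0.527 and 1.11 in control libraries. Glyma19g38590.1 had 10.6, 13.5 and 26 CPM in MAMP libraries, against 0.22, 0.866 and 1.22 in control libraries. These runs were chosen after their values were seen. Adjacent copies that share sequence can share reads, and this was not tested.

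The most abundant of the 21 strong rises, Glyma19g44380.1, also chosen after its values were seen, had 179, 252 and 665 CPM (lowest, median and highest) in MAMP libraries, against 20.8, 33.4 and 87.8 in control libraries. Its ratio was 7.01 (counting interval 6.66 to 7.37) in R-11268, 6.75 (6.4 to 7.13) in R-11272, 12.6 (11.9 to 13.4) in LD and 7.56 (7.24 to 7.89) in LDX. It too was not called for a difference in response over the lines. Its control levels had means of 31.8 ± 5.28 CPM in R-11268, 33.1 ± 1.21 in R-11272, 26.1 ± 4.59 in LD and 52.9 ± 30.2 in LDX (SD, n = 3 libraries each).

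Whether the lines differed in their response was tested last. An F test over the 4 lines called 2 members (0.131%, against 0.148% of all transcripts). No member was called for R-11268 minus R-11272 (0.0331% of all transcripts were) or for LD minus LDX (0.012% of all), with 56 and 42 members at an unadjusted p under 0.05. DESeq2 also called 0 in each, and without the 3 pools apart edgeR called 3 members for R-11268 minus R-11272 and 0 for LD minus LDX. Glyma19g43570.1 rose in each line, 8.6-fold (counting interval 7.53 to 9.85) in R-11268, 8.03-fold (6.88 to 9.41) in R-11272, 38.2-fold (30.8 to 47.9) in LD and 24.7-fold (19.9 to 31) in LDX (edgeR F test, adjusted p = 0.0446). Its MAMP libraries held 33.8 to 47.3 CPM in R-11268 and 28.8 to 37.7 in R-11272, against 53.2 to 88 in LD and 34.1 to 65.1 in LDX. Its control libraries held 3.91 to 5.51 CPM in R-11268 and 3.57 to 4.68 in R-11272, against 1.4 to 2.35 in LD and 1.4 to 2.62 in LDX. Control levels of the inbred lines were thus above those of the parents without overlap.

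Glyma19g22800.1, a scarce transcript, had 0.995 ± 0.219 CPM in R-11272 MAMP libraries, against 0.249 ± 0.0555 in R-11272 controls (SD, n = 3 libraries each), without overlap, at a ratio of 3.94 (counting interval 2.02 to 8.41). In the other lines the MAMP to control ratio was 1.08 (0.627 to 1.85) in R-11268, 1.02 (0.599 to 1.73) in LD and 0.62 (0.337 to 1.11) in LDX (edgeR F test over the lines, adjusted p = 0.0446). It rests on 48.94 estimated counts in R-11272 MAMP libraries and 10.99 in the controls. The call of Glyma19g43570.1 was lost in 12 of 18 alternatives and that of Glyma19g22800.1 in 14 of 17, so neither is firm. For each, the alternatives that kept the call include the replicate block of line and number, which is void for fitted values.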

How the data were processed

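The authors deposited 1 table of estimated counts, with 1 row per transcript model and 1 column per library. The submitters' processing notes name Bowtie 0.12.7, TopHat 1.4.1 and Cufflinks 1.1.0, without roles. Not given in the sources used here: the genome build, the strand setting and how reads with several matches were treated. Column names end in C (control) or P, which was read as MAMP, the only other treatment. Per the labels, TruSeq kits were used for the libraries.

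After rounding, edgeR 4.0.16 (R 4.3.3) was run on the whole table, with TMM scaling and the filterByExpr filter on low counts (minimum count 10, minimum total 15). Line differences were tested on 12 pool sums (8 residual degrees of freedom, 34807 transcripts). MAMP responses were tested on 24 libraries with 8 group means and no block (16 residual degrees of freedom, 33214 transcripts). That fit treats the MAMP and control libraries of a pool as independent, although they deviate together. Its 16 degrees of freedom thus count each pool deviation more than once, and its p-values are not those of 24 independent libraries. Deviations of MAMP and control libraries with the same line and number correlated at 0.987 to 0.996, those with other numbers at -0.969 to 0.809, which is the ground for reading them as 1 pool. In fitted values that pairing cannot be told apart from the authors' model. The threshold was an adjusted p (Benjamini-Hochberg) of 0.05. DESeq2 1.42.0, limma 3.58.1, other filters, scalings and left-out pools were alternatives. Ratios of totals carry exact 95% counting intervals. Against 0, a floor of 3 counts over a group gives a lower bound. The fits were run on simulated counts for LD minus LDX and for the mean MAMP response only. Those counts were drawn independently for each pool or library, unlike the fitted values here. They therefore do not bear on the p-values.

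Named members are, for each comparison, the 2 with the largest fold in each direction among calls with 10 or more estimated counts per library in the higher group, without overlap over pools (line differences) or with 1 sign in 4 lines (mean response). Response differences were ranked by adjusted p, and the 3 most abundant members were added. None of the identifiers of chromosome 19 matched the table of gene names at hand. The members, lists and tests were chosen with earlier results of these data known. The labels do not say whether pools are separate experiments, so the spread between them may be partly technical.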

Additional observations from a re-analysis of the deposited data

Results flagged for a closer look

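The MAMP response of 2 members differed between lines. For Glyma19g43570.1 the edgeR F test over the 4 lines gave an adjusted p of 0.0446, with log2 responses of 3.11 in R-11268, 3.01 in R-11272, 5.23 in LD and 4.64 in LDX, all positive. For Glyma19g22800.1 the adjusted p was also 0.0446, with log2 responses of 0.16 in R-11268, 1.99 in R-11272, -0.02 in LD and -0.68 in LDX. Without the 3 pools apart the adjusted p was 0.0443 for Glyma19g43570.1 and 0.117 for Glyma19g22800.1. Over all alternatives it ranged from 3.23e-48 to 0.211 and from 0.000164 to 0.385, the lowest values being those of the replicate block, which is void for fitted values.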

How the results depend on the processing

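Of 431 counts of members under alternative settings 304 stayed within 1.5 times the main count, and of 552 values of named members 499 kept their call, 53 lost it and 0 changed sign. Both totals include the replicate block of line and number for MAMP results, which is void for fitted values. No cause was tested unless named. Counts in this section carry no share over all transcripts, so they show only how far a count of members moved. With fewer transcripts eligible, a mean of 100 or more estimated counts per library left 6 calls for LD minus LDX, 4 for R-11268 minus R-11272, 0 for R-11268 minus LD, 4 for R-11268 minus LDX, 6 for R-11272 minus LD and 0 for R-11272 minus LDX. It left 75 for the mean MAMP response, 43 in LD, 34 in LDX, 38 in R-11272 and 0 for the F test over lines. Depth itself was not varied, and scarce members have wide counting intervals. With no filter on low counts the calls numbered 90 for LD minus LDX, 39 for R-11268 minus R-11272, 23 for R-11268 minus LD and 29 for R-11272 minus LDX. With only the 2 lines compared in the fit they were 21 for LD minus LDX, 22 for R-11268 minus LDX, 21 for R-11272 minus LD and 6 for R-11272 minus LDX. With only the 6 libraries of a line they numbered 32 for R-11272, 112 for R-11268 and 11 for LDX. DESeq2 called 19 for R-11268 minus LD and 1 in the F test over lines. In control libraries R-11268 minus LD gave 7 calls and R-11272 minus LDX 30, and in MAMP libraries R-11268 minus LD gave 49, R-11272 minus LD 145 and R-11272 minus LDX 33.

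Without the 3 pools apart, an alternative chosen after seeing the data, LD minus LDX gave 107 calls, R-11268 minus LD 21, the mean MAMP response 246, the response in R-11272 140, in R-11268 122 and in LDX 92, the F test over lines 8 and R-11268 minus R-11272 in response 3. Leaving out each pool in turn gave 33 to 70 calls for LD minus LDX (lowest without LD replicate 1), 18 to 29 for R-11268 minus R-11272, 4 to 16 for R-11268 minus LD, 23 to 53 for R-11268 minus LDX, 29 to 83 for R-11272 minus LD and 11 to 18 for R-11272 minus LDX. It gave 117 to 147 for the mean MAMP response, 29 to 65 in R-11268, 42 to 83 in R-11272, 45 to 80 in LD, 39 to 69 in LDX, and 0 to 1 for the F test over lines.

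The fit with a replicate block of line and number gave 834 calls for the mean MAMP response, 637 in LD, 609 in LDX, 504 in R-11268, 708 in R-11272, 792 for the F test over lines, 374 for LD minus LDX in response and 476 for R-11268 minus R-11272 in response. That paired fit is void here, because the deposited MAMP to control ratio has no spread within a line. Across lines the numbers do not pair the pools (correlations of deviations from -0.881 to 0.661). A replicate block of number over the 12 pools gave 33 calls for LD minus LDX, 19 for R-11268 minus R-11272, 9 for R-11268 minus LD, 34 for R-11268 minus LDX, 47 for R-11272 minus LD and 11 for R-11272 minus LDX.

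Of the parental classes, those at 8-fold or more gave for R-11268 15 LD-like, 0 LDX-like, 1 between and 1 outside, and for R-11272 3 LD-like, 12 LDX-like, 0 between and 2 outside. A mean of 100 or more per pool gave for R-11268 9 LD-like, 2 LDX-like, 3 between and 0 outside, and for R-11272 1 LD-like, 10 LDX-like, 2 between and 1 outside. By nearest parent R-11268 was LDX-like at 16 loci and R-11272 LD-like at 14. Levels from control libraries gave 3 LDX-like and 7 outside in R-11268 and 11 between in R-11272, and those from MAMP libraries 6 outside in R-11268 and 10 outside in R-11272. Without the 3 pools apart R-11268 was LD-like at 39 and between at 29, and R-11272 LDX-like at 41 and between at 24. Leaving out each pool in turn gave for R-11268 19 to 29 LD-like, 1 to 7 LDX-like, 9 to 24 between and 1 to 5 outside, and for R-11272 5 to 10 LD-like, 18 to 28 LDX-like, 5 to 19 between and 2 to 10 outside. In each alternative R-11268 had more LD-like than LDX-like loci and R-11272 more LDX-like than LD-like.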
